A study of Mus musculus with 11 samples.

Results

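The genes described here are 10 genes used to recognise radial glia and neural stem cells: Nes, Vim, Hopx, Fabp7, Pax6, Lpar1, Etv4, Etv5, Prom1 and Tnc. They were chosen by name and not by a cut on their values, though earlier results of these data were known. Each is represented by a probe set annotated to that symbol alone, and where a gene had more than 1 such probe set the brightest one by its mean across the arrays was used, which applied to Etv5. All 10 were measured and all 10 were among the 16527 genes tested, taken from 28858 probe sets.

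Each of 11 Affymetrix Mouse Gene ST arrays read RNA from GFP-positive cells sorted from microdissected dorsal and ventral dentate gyrus of mice at postnatal day 35. All mice carried a GFP reporter, and they differed in the gene that drives it. NesGFP mice (3 arrays) carry a Nestin (Nes) GFP transgene. kiTbr2GFP mice (3 arrays) carry GFP knocked into Eomes, the gene of the transcription factor Tbr2, tgTbr2GFP mice (3 arrays) carry GFP on an Eomes BAC transgene, and PomcGFP mice (2 arrays) carry a pro-opiomelanocortin (Pomc) GFP transgene. Tbr2 is a transcription factor of progenitors on the way to neurons, and Pomc reporters are known to label newborn granule neurons. A line is therefore defined by the cells in which its reporter is bright enough to be gated, and a reporter can be active in more than 1 cell type or persist in daughter cells. The labels do not give the promoter fragment, the number of animals or the copy state of the knock-in allele, and they state that the RNA of a small number of sorted cells was amplified. Whether arrays of the same line represent different animals is not stated, so p-values measure only the spread between these arrays, which may be technical. The design text names the search for genes of the dentate gyrus stem cell niche as the purpose.

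Radial glia-like cells are the stem cells of the adult dentate gyrus. They keep a long process filled with intermediate filament proteins, share many genes with astrocytes, and give rise to Tbr2-positive intermediate progenitors, which in turn make granule neurons. Several of the 10 genes are therefore in use in other cells as well: Vim, Hopx, Fabp7 and Tnc in astrocytes, Nes and Vim in blood vessel cells, and Prom1 in ciliated ependymal cells. An array on sorted cells gives 1 value for a mixture, in which fewer cells of a type and less RNA per cell cannot be told apart.

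Of the genes, 9 of 10 were higher on all 3 NesGFP arrays than on any of the other 8 arrays, and Pax6 was the exception, with its highest values in the Tbr2 lines. Over all genes tested, 23.3% had every NesGFP array above the other 8 and 14.6% had every NesGFP array below them, so this placement was common on these arrays. Values are deposited on the log2 scale, on which a difference of 1 is a doubling. In the moderated F test of limma over the 4 lines, 10 of 10 genes passed, with an adjusted p (Benjamini-Hochberg) under 0.05, against 43.4% of all genes tested. Their adjusted p ranged from 3.48e-06 for Hopx to 0.00578 for Lpar1.

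The region just upstream of the start site is shown for 6 of these genes: Nes because it drives the NesGFP reporter, Etv5 because its line means lay farthest apart, and Vim, Fabp7, Prom1 and Tnc because the first window that RefSeq lists for them held a match to a motif searched for. Each is the 250 bases before the RefSeq start in mouse build GRCm38.p6, read 5′ to 3′ on the strand of the gene, and capitals mark the matches. The Nes window lies at chr3:87970843-87971092 on the plus strand, that of Vim at chr2:13574061-13574310 on the plus strand, that of Fabp7 at chr10:57784673-57784922 on the plus strand, that of Etv5 at chr16:22439571-22439820 on the minus strand, that of Prom1 at chr5:44101737-44101986 on the minus strand and that of Tnc at chr4:64047016-64047265 on the minus strand.
Nes: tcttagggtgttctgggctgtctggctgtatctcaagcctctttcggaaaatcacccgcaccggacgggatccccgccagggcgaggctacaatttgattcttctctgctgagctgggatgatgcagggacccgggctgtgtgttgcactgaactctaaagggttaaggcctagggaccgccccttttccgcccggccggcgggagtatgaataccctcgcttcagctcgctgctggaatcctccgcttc
Vim: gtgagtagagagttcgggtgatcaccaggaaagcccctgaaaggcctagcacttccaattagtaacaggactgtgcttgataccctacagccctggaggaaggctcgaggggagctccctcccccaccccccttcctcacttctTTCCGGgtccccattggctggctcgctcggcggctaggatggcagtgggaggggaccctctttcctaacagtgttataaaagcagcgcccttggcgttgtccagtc
Fabp7: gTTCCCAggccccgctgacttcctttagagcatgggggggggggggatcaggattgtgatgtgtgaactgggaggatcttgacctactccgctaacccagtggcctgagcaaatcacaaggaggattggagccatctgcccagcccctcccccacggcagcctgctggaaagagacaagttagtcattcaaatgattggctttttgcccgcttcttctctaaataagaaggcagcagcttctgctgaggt
Etv5: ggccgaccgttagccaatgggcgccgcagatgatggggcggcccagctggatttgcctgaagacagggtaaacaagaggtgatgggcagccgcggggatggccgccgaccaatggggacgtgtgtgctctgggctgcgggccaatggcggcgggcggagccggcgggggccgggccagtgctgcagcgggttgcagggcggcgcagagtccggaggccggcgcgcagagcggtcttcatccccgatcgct
Prom1: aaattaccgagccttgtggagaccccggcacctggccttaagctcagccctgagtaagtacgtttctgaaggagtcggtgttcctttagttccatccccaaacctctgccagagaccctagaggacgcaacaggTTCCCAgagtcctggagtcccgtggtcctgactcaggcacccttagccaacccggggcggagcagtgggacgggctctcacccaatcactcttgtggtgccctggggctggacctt
Tnc: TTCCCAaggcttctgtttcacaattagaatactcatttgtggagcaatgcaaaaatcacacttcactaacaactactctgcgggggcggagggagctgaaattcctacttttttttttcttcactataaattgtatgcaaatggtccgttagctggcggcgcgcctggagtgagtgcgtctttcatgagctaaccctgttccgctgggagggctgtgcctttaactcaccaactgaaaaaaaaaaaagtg

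The motifs were searched as plain letters on both strands: TGGGAA, the core bound by the Notch effector RBPJ; ACAAAG or ACAATG, bound by SOX factors; TTGGCA, bound by nuclear factor I; and CCGGAA, bound by ETS factors. RefSeq gave upstream windows for 9 of the 10 genes, several with more than 1 start. In the windows shown, Fabp7, Prom1 and Tnc each held 1 RBPJ match, read here as TTCCCA, Vim held 1 ETS match, and Nes and Etv5 held 0 of the 4 motifs. Over every window of the 9 genes, the RBPJ letters occurred for 4 genes (Fabp7, Etv5, Prom1 and Tnc), where the Etv5 matches lay in its other window. The SOX letters occurred for 2 genes (Pax6 and Lpar1), the nuclear factor I letters for 1 gene (Tnc) and the ETS letters for 1 gene (Vim). Of all 27025 genes with windows of the same length, 24.1% held the RBPJ letters in at least 1 window, 28.2% the SOX letters, 14.1% the nuclear factor I letters and 13.6% the ETS letters. A match is a run of letters and not a binding site. The windows differed in base composition, from 44.8% G and C for Tnc to 71.2% for Etv5 among those shown, with a median of 52.4% over all windows.

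The intermediate filaments Nes and Vim come first. Nes encodes nestin, a filament protein of neural stem and progenitor cells, and lies at chr3:87971093-87980451. It read 7.63, 7.51 and 6.91 on the NesGFP arrays, 6.25, 5.97 and 6.22 in kiTbr2GFP, 5.78, 5.91 and 6.14 in tgTbr2GFP, and 6.07 and 5.97 in PomcGFP. The 3 NesGFP arrays stood apart, and the other 3 lines overlapped each other. The NesGFP cells were sorted on a Nes reporter, so the height of Nes there is not independent of the sort. The 25th percentile of the arrays lay between 5.90 and 6.20, and Nes was above it on 3 NesGFP arrays, 2 kiTbr2GFP arrays, 0 tgTbr2GFP arrays and 0 PomcGFP arrays, so outside NesGFP it read among the dimmest probe sets. Against NesGFP it was lower by 2.30-fold in kiTbr2GFP (log2 difference -1.20, SE 0.18, adjusted p = 0.000226). In the lines where no array was above that percentile only a bound can be read: with each value raised to the 25th percentile of its array, Nes was at least 2.37-fold lower in tgTbr2GFP (fitted difference -1.41, SE 0.18, adjusted p = 8.04e-05) and at least 2.31-fold lower in PomcGFP (fitted difference -1.33, SE 0.20, adjusted p = 0.000327). None of the 3 differences among the other lines passed the test; the 95% interval of tgTbr2GFP minus kiTbr2GFP ran from -0.60 to 0.19.

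**Figure D1:**
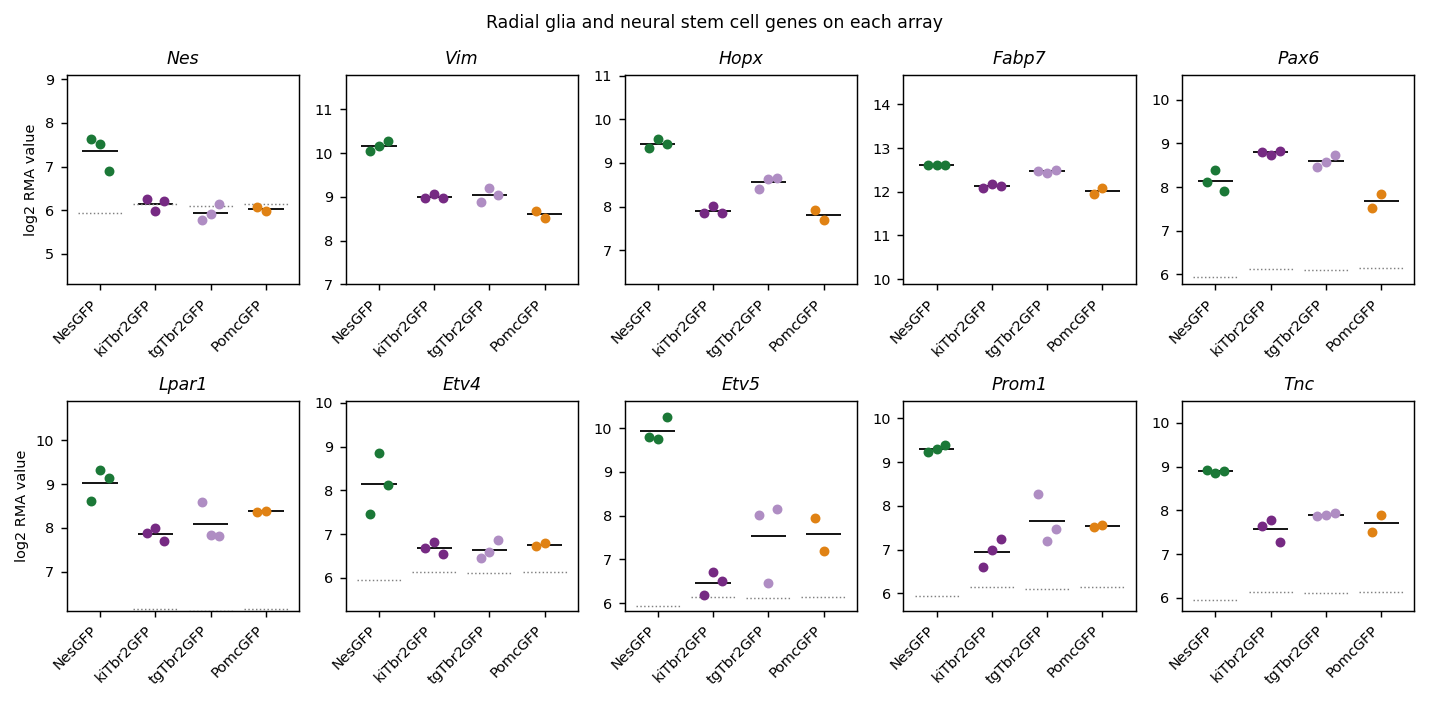
Deposited log2 value of each of the 10 genes (vertical axis, the same span in each panel) on each array, by reporter line; points are arrays, bars are line means, and dotted marks give the mean 25th percentile of a line's arrays where it falls inside the panel. In 9 panels all 3 NesGFP points lie above all others, and in the Pax6 panel the kiTbr2GFP and tgTbr2GFP points are highest.

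Vim encodes vimentin, the filament protein that pairs with nestin in radial glia and is also abundant in astrocytes and vessel cells (chr2:13574311-13582826). It read 10.06, 10.17 and 10.28 in NesGFP, 8.98, 9.06 and 8.98 in kiTbr2GFP, 8.87, 9.19 and 9.04 in tgTbr2GFP, and 8.68 and 8.51 in PomcGFP. Every NesGFP array was higher than every other array, both Tbr2 lines overlapped, and both PomcGFP arrays were below all Tbr2 arrays. Vim was 2.24-fold lower in kiTbr2GFP than in NesGFP (log2 difference -1.17, SE 0.11, adjusted p = 9.86e-06), 2.20-fold lower in tgTbr2GFP (-1.14, SE 0.11, adjusted p = 1.43e-05) and 2.97-fold lower in PomcGFP (-1.57, SE 0.13, adjusted p = 4.66e-06). The further step down to PomcGFP did not pass the test, with adjusted p = 0.117 against kiTbr2GFP (difference -0.41, 95% interval -0.69 to -0.12) and adjusted p = 0.177 against tgTbr2GFP (-0.43, interval -0.72 to -0.15). These intervals are for single genes and are not adjusted for the number of genes tested. With array weights both differences passed, at -0.45 (adjusted p = 0.00896) and -0.52 (adjusted p = 0.0129). The weights were 6.31 for kiTbr2GFP array 2, 3.08 for tgTbr2GFP array 2 and 0.30 to 1.29 for the rest. In the weighted fit each Tbr2 line thus rests mostly on 1 array.

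The other intermediate filaments gave a mixed picture. Of 11 measured, 6 were lower and 2 higher in kiTbr2GFP than in NesGFP (median difference -0.38), 3 lower and 1 higher in tgTbr2GFP (median -0.11), and 4 lower and 3 higher in PomcGFP (median -0.22). Over all genes 27.0%, 25.8% and 24.0% were lower than in NesGFP in these lines and 18.2%, 15.8% and 15.9% higher, the shares against which each list counted against NesGFP is read; the 3 of 11 filaments lower in tgTbr2GFP were about as many as among all genes. Gfap, the astrocyte and radial glia filament, was lower, with log2 differences of -2.73 in kiTbr2GFP, -2.28 in tgTbr2GFP and -2.50 in PomcGFP. Des, the muscle and mural cell filament desmin, was lower than in NesGFP in the same order by log2 differences of -0.94, -1.04 and -0.88, and so was Synm, which joins other filaments (-0.86, -0.57 and -0.52). The neuronal filament gene Ina was higher in all 3 lines, by 0.64, 0.60 and 0.91. The neurofilament genes Nefl and Nefm were lower in kiTbr2GFP than in NesGFP (-1.02 and -1.05) and higher in PomcGFP (0.82 and 1.26), and Lmnb1, a nuclear lamina protein, had the opposite order (0.72 in kiTbr2GFP and -0.69 in PomcGFP).

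Hopx encodes a small homeodomain-only protein without DNA binding of its own, and is used to mark quiescent radial glia-like cells of the dentate gyrus (chr5:77086986-77115123). It read 9.35, 9.55 and 9.44 in NesGFP, 7.85, 8.02 and 7.85 in kiTbr2GFP, 8.41, 8.64 and 8.65 in tgTbr2GFP, and 7.93 and 7.70 in PomcGFP. The order of the lines was NesGFP, tgTbr2GFP, kiTbr2GFP and PomcGFP, in which kiTbr2GFP and PomcGFP overlapped and the other steps did not. Hopx was 2.90-fold lower in kiTbr2GFP than in NesGFP (log2 difference -1.54, SE 0.12, adjusted p = 1.4e-06), 1.84-fold lower in tgTbr2GFP (-0.88, SE 0.12, adjusted p = 0.000105) and 3.09-fold lower in PomcGFP (-1.63, SE 0.13, adjusted p = 3.99e-06).

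Hopx was the only one of the 10 genes with a called difference between the Tbr2 lines, at 0.66 higher in tgTbr2GFP than in kiTbr2GFP (SE 0.12, 1.58-fold, adjusted p = 0.0219), where 0.684% of all genes were called higher. It was also lower in PomcGFP than in tgTbr2GFP (-0.75, SE 0.13, 1.68-fold lower, adjusted p = 0.0170). The call between the Tbr2 lines was lost without kiTbr2GFP array 1 (adjusted p = 0.0985), 2 (0.0537) or 3 (0.102) and without tgTbr2GFP array 2 (0.0738) or 3 (0.0882), with the difference between 0.62 and 0.72 throughout. The call between PomcGFP and tgTbr2GFP was lost without PomcGFP array 1 (-0.87, adjusted p = 0.0827) or 2 (-0.64, 0.198), without tgTbr2GFP array 2 (0.0852) or 3 (0.0814), and when these lines were fitted alone (0.0629). Beside it, the 8 astrocyte markers had a median difference of 0.64 between tgTbr2GFP and kiTbr2GFP, with 1 of 8 called (S100b, 1.11); their part in the Hopx difference was not tested.

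Fabp7 encodes brain lipid-binding protein, a fatty acid carrier of radial glia and astrocytes (chr10:57784923-57788450). It read 12.61, 12.61 and 12.61 in NesGFP, 12.08, 12.17 and 12.14 in kiTbr2GFP, 12.48, 12.42 and 12.50 in tgTbr2GFP, and 11.95 and 12.08 in PomcGFP. The order was NesGFP, tgTbr2GFP, kiTbr2GFP and PomcGFP, with no overlap between any pair of lines, but the steps were small. The lowest kiTbr2GFP array and the highest PomcGFP array were equal to 2 decimals (12.08). The limma difference of PomcGFP from kiTbr2GFP was -0.12 (adjusted p = 0.821). Fabp7 stood among the brightest probe sets of every array, from the 99.3 to the 99.9 percentile. It was 1.40-fold lower in kiTbr2GFP than in NesGFP (log2 difference -0.48, SE 0.09, adjusted p = 0.00126) and 1.51-fold lower in PomcGFP (-0.60, SE 0.10, adjusted p = 0.000773). The difference of tgTbr2GFP from NesGFP, -0.14 (SE 0.09, 95% interval -0.34 to 0.06), did not pass (adjusted p = 0.249).

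Nor did the Fabp7 differences among the other lines, of which the larger were 0.34 for tgTbr2GFP minus kiTbr2GFP (adjusted p = 0.137) and -0.46 for PomcGFP minus tgTbr2GFP (adjusted p = 0.0612). Several of the Fabp7 calls changed with the setting. With an intensity trend and a robust prior, tgTbr2GFP minus NesGFP passed (adjusted p = 0.0488), as did tgTbr2GFP minus kiTbr2GFP (0.00931) and PomcGFP minus tgTbr2GFP (0.00311). With array weights the latter pair passed as well (0.0144 and 0.00962). PomcGFP minus tgTbr2GFP passed too with median centring (-0.48, 0.0380) and without NesGFP array 3 (0.0484). Of the related genes on a list of fatty acid binding proteins and prominin 2, 3 were measured, and Fabp5, an epidermal-type carrier also found in neural progenitors, was lower than in NesGFP (-0.43, -0.45 and -0.70 in kiTbr2GFP, tgTbr2GFP and PomcGFP), while Fabp3 and Prom2 passed in none of the 3.

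Pax6, a paired-box transcription factor of radial glia and of early granule neuron progenitors (chr2:105668896-105698410), followed another order. It read 8.12, 8.39 and 7.92 in NesGFP, 8.81, 8.73 and 8.83 in kiTbr2GFP, 8.46, 8.56 and 8.73 in tgTbr2GFP, and 7.52 and 7.84 in PomcGFP. Both Tbr2 lines were above every NesGFP array, and both PomcGFP arrays were below them. Pax6 was 1.57-fold higher in kiTbr2GFP than in NesGFP (log2 difference 0.65, SE 0.14, adjusted p = 0.00277), 1.36-fold higher in tgTbr2GFP (0.44, SE 0.14, adjusted p = 0.0245) and 1.38-fold lower in PomcGFP (-0.46, SE 0.16, adjusted p = 0.0347). From the Tbr2 lines to PomcGFP it fell 2.16-fold against kiTbr2GFP (-1.11, SE 0.16, adjusted p = 0.00161) and 1.87-fold against tgTbr2GFP (-0.91, SE 0.16, adjusted p = 0.0167). The Tbr2 lines did not differ in the test (-0.21 for tgTbr2GFP minus kiTbr2GFP, 95% interval -0.51 to 0.10, adjusted p = 0.832).

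The differences of kiTbr2GFP from NesGFP and from PomcGFP in Pax6 kept their calls in every alternative tried, while the other 3 did not. That of tgTbr2GFP from NesGFP was lost with array weights (0.39, adjusted p = 0.0537), in a fit of these lines alone (0.0616), and without NesGFP array 1 (0.0560) or 3 (0.0737) or tgTbr2GFP array 2 (0.0563) or 3 (0.0920). That of PomcGFP from NesGFP was lost with cyclic loess (-0.31, adjusted p = 0.118), in a fit of these lines alone (0.126), and without NesGFP array 1 (0.0565) or 2 (-0.34, 0.0986), kiTbr2GFP array 2 (0.0502) or PomcGFP array 1 (-0.30, 0.282). That of PomcGFP from tgTbr2GFP was lost in a fit of these lines alone (0.0513), and without PomcGFP array 1 (-0.75, 0.216) or 2 (-1.07, 0.0608) or tgTbr2GFP array 2 (0.0691) or 3 (0.0814). The direction held in all of them. Beside Pax6, the 4 intermediate progenitor markers were all higher than in NesGFP in both Tbr2 lines (median differences 1.11 and 1.01). In PomcGFP 1 was lower (median -0.22). Eomes, 1 of the 4, is also the gene whose reporter both Tbr2 lines were sorted on. Its rise there is therefore not independent of the sort. Insm1, Neurod4 and Neurog2 were higher by 1.04, 3.29 and 0.90 in kiTbr2GFP and by 0.63, 2.14 and 0.45 in tgTbr2GFP. The part of these markers in the Pax6 difference was not tested.

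Lpar1 encodes a receptor for lysophosphatidic acid, and a reporter for it is in use to mark dentate gyrus stem cells; the gene is also high in oligodendrocytes (chr4:58435252-58554027). It read 8.60, 9.32 and 9.13 in NesGFP, 7.88, 7.99 and 7.69 in kiTbr2GFP, 8.60, 7.85 and 7.81 in tgTbr2GFP, and 8.36 and 8.39 in PomcGFP. The lowest NesGFP array and the first tgTbr2GFP array were equal to 2 decimals, and the NesGFP arrays were otherwise above all others. Lpar1 was 2.24-fold lower in kiTbr2GFP than in NesGFP (log2 difference -1.16, SE 0.22, adjusted p = 0.00133) and 1.91-fold lower in tgTbr2GFP (-0.94, SE 0.22, adjusted p = 0.00568). The difference of PomcGFP from NesGFP, -0.64 (SE 0.25, 95% interval -1.19 to -0.09), did not pass (adjusted p = 0.0617); it passed with median centring (-0.73, adjusted p = 0.0459), without NesGFP array 1 (-0.85, 0.0167) and without tgTbr2GFP array 1 (0.0229).

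PomcGFP stood second in the order for Lpar1, but its difference from kiTbr2GFP (0.52, interval -0.03 to 1.07, adjusted p = 0.394) passed only in a fit of these lines alone (0.0453). On the first tgTbr2GFP array, where Lpar1 was high for its line, the mean of 6 oligodendrocyte markers was 9.03, against 7.31 and 7.64 on the other tgTbr2GFP arrays. That mean was 8.85 and 8.89 in PomcGFP, 7.35 to 7.90 in kiTbr2GFP and 10.5 to 10.8 in NesGFP; its part in the Lpar1 values was not tested. Of 7 other lysophosphatidic acid receptor and phosphatase genes measured, 3 were lower in kiTbr2GFP, 2 in tgTbr2GFP and 2 in PomcGFP than in NesGFP, and 1 was higher in PomcGFP, where 27.0%, 25.8% and 24.0% of all genes were lower, so the counts in tgTbr2GFP and PomcGFP were near those of all genes. Plpp3, a membrane phosphatase that breaks down lysophosphatidic acid, was lower in that order by log2 differences of -2.13, -1.53 and -2.10, and so was the related Plpp1 (-1.09, -0.82 and -0.61). Lpar4 was lower in kiTbr2GFP (-0.69), and Lpar2 was higher in PomcGFP (0.44, adjusted p = 0.0448).

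Etv4 and Etv5 encode ETS transcription factors of the Pea3 group, which are switched on by FGF and ERK signalling. Etv4 (chr11:101769747-101785310) read 7.46, 8.85 and 8.13 in NesGFP, 6.69, 6.81 and 6.55 in kiTbr2GFP, 6.44, 6.60 and 6.86 in tgTbr2GFP, and 6.72 and 6.80 in PomcGFP. The NesGFP arrays were spread widely (8.15 ± 0.70, SD, n = 3) yet all lay above the other 8, which overlapped among the other lines. Etv4 was 2.76-fold lower in kiTbr2GFP than in NesGFP (log2 difference -1.46, SE 0.27, adjusted p = 0.000973), 2.85-fold lower in tgTbr2GFP (-1.51, SE 0.27, adjusted p = 0.000845) and 2.62-fold lower in PomcGFP (-1.39, SE 0.30, adjusted p = 0.00345). No difference among the other lines passed; the 95% interval of PomcGFP minus tgTbr2GFP ran from -0.54 to 0.78.

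On the probe set used here, Etv5 (chr16:22381313-22439570) had the largest differences of the 10 genes in each comparison with NesGFP. It read 9.79, 9.76 and 10.27 in NesGFP, 6.19, 6.71 and 6.51 in kiTbr2GFP, 8.01, 6.45 and 8.16 in tgTbr2GFP, and 7.95 and 7.20 in PomcGFP. The NesGFP arrays were far above the rest, and the second tgTbr2GFP array read like kiTbr2GFP while the other tgTbr2GFP arrays read like PomcGFP. The kiTbr2GFP values lay at the 27.7, 38.3 and 31.8 percentile of their arrays, toward the dim end, so the fold for that line is imprecise. Etv5 was 11.1-fold lower in kiTbr2GFP than in NesGFP (log2 difference -3.47, SE 0.38, adjusted p = 2.37e-05), 5.27-fold lower in tgTbr2GFP (-2.40, SE 0.38, adjusted p = 0.000411) and 5.16-fold lower in PomcGFP (-2.37, SE 0.43, adjusted p = 0.00112).

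Among the lines other than NesGFP, Etv5 was 1.07 higher in tgTbr2GFP than in kiTbr2GFP (95% interval 0.23 to 1.92, adjusted p = 0.322) and 1.10 higher in PomcGFP than in kiTbr2GFP (interval 0.16 to 2.05, adjusted p = 0.234), and neither passed. Without tgTbr2GFP array 2 both passed, at 1.62 (adjusted p = 0.0172) and 1.10 (0.0281), and PomcGFP minus kiTbr2GFP also passed in a fit of these lines alone (0.0381). On that array the mean of the 8 astrocyte markers was 8.32, the lowest of its line, against 8.94 and 8.61 on the other tgTbr2GFP arrays. The oligodendrocyte, oligodendrocyte precursor, endothelial, mural, microglial, and ependymal and choroid plexus means were also lowest of the line there. The part of these cells in the Etv5 value was not tested. A second Etv5 probe set read 8.67, 8.54 and 8.68 in NesGFP and from 6.21 to 6.82 on the other 8 arrays, also with no overlap. Its steps from NesGFP were smaller than those of the probe set used. With the mean of both probe sets the differences from NesGFP were -2.86, -2.16 and -2.13 in kiTbr2GFP, tgTbr2GFP and PomcGFP.

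Of genes that act beside Etv4 and Etv5 in growth factor signalling, some were lower outside NesGFP and the rest did not pass. Of 16 receptors, ERK feedback inhibitors and targets measured, 12 were lower in kiTbr2GFP, 11 in tgTbr2GFP and 8 in PomcGFP, against 27.0%, 25.8% and 24.0% of all genes, and 0 were higher in any of the 3, also at limma's unadjusted p under 0.05, with median differences of -1.08, -0.89 and -0.82. The receptor gene Fgfr2 had differences of -2.43, -2.09 and -2.01 in that order. Of the feedback inhibitors, Il17rd, Dusp6, Spry2 and Spry4 were lower in all 3 lines, while Dusp4, Dusp5, Spred3 and Spry1 passed in none (Dusp4 0.25, -0.42 and -0.51, Dusp5 0.09, 0.01 and 0.12) and Spred1 passed in kiTbr2GFP (-0.41). Il17rd had differences of -1.86, -1.38 and -1.80, Dusp6, an ERK phosphatase, of -1.68, -1.27 and -1.83, and Spry2 of -1.50, -1.50 and -1.81. Ccnd1, a cyclin downstream of growth factors, was lower too (-1.62, -1.64 and -1.54). Etv1, the third Pea3 group gene, was lower in kiTbr2GFP (-1.49, adjusted p = 0.00177) and tgTbr2GFP (-1.35, adjusted p = 0.00355), and its difference in PomcGFP was -0.86 (adjusted p = 0.0604). Spred2, another inhibitor, was lower in kiTbr2GFP (-1.09) and tgTbr2GFP (-0.70) and differed by -0.07 in PomcGFP (adjusted p = 0.841).

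Prom1 encodes prominin 1 (CD133), a glycoprotein of membrane protrusions used to sort neural stem cells (chr5:43993621-44102047). It read 9.23, 9.29 and 9.40 in NesGFP, 6.61, 7.00 and 7.25 in kiTbr2GFP, 8.28, 7.20 and 7.47 in tgTbr2GFP, and 7.52 and 7.56 in PomcGFP. The NesGFP arrays were close together and well above the rest, and kiTbr2GFP was lowest, overlapping tgTbr2GFP but not PomcGFP. Prom1 was 5.12-fold lower in kiTbr2GFP than in NesGFP (log2 difference -2.35, SE 0.24, adjusted p = 1.27e-05), 3.15-fold lower in tgTbr2GFP (-1.66, SE 0.24, adjusted p = 0.000202) and 3.41-fold lower in PomcGFP (-1.77, SE 0.27, adjusted p = 0.000335). The difference of tgTbr2GFP from kiTbr2GFP was 0.70 (95% interval 0.17 to 1.23, adjusted p = 0.296), and that of PomcGFP was 0.59 (interval 0.00 to 1.18, adjusted p = 0.354). The first tgTbr2GFP array was the high one for Prom1, as for Lpar1. The mean of the 5 ependymal and choroid plexus markers was 7.85 on that array, against 6.81 and 6.89 on the others of its line. By gene, Ttr differed by 1.99 (SE 1.08) in tgTbr2GFP minus NesGFP, and the other markers of that list by -0.57 to 0.01. The oligodendrocyte, oligodendrocyte precursor, astrocyte, endothelial, mural and microglial marker means were also highest of the line on the first tgTbr2GFP array. The part of these cells in the Prom1 value was not tested.

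Tnc encodes tenascin C, an extracellular matrix glycoprotein of stem cell niches (chr4:63959785-64047015). It read 8.93, 8.85 and 8.89 in NesGFP, 7.65, 7.79 and 7.28 in kiTbr2GFP, 7.87, 7.89 and 7.95 in tgTbr2GFP, and 7.51 and 7.89 in PomcGFP. NesGFP was again apart, and PomcGFP overlapped both Tbr2 lines, which did not overlap each other. Tnc was 2.49-fold lower in kiTbr2GFP than in NesGFP (log2 difference -1.32, SE 0.14, adjusted p = 1.95e-05), 1.98-fold lower in tgTbr2GFP (-0.99, SE 0.14, adjusted p = 0.000192) and 2.28-fold lower in PomcGFP (-1.19, SE 0.16, adjusted p = 0.00014). No other difference passed, and that of tgTbr2GFP from kiTbr2GFP was 0.33 (95% interval 0.02 to 0.64, adjusted p = 0.492).

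Among 12 other tenascins, tenascin receptors and lecticans, 7 were lower in kiTbr2GFP, 6 in tgTbr2GFP and 6 in PomcGFP than in NesGFP, with medians of -0.50, -0.46 and -0.57, and 1 was higher, in PomcGFP. Bcan, the lectican brevican, was lower (-3.42, -2.76 and -2.55 in that order), and so was Itgav, an integrin subunit of receptors for tenascin C (-1.87, -1.31 and -1.46). Tnr, the tenascin of oligodendrocytes and some neurons, was lower in kiTbr2GFP (-1.59) and tgTbr2GFP (-1.17) and differed by -0.32 in PomcGFP (adjusted p = 0.216). The integrin subunit Itga8 was higher in PomcGFP (1.21, adjusted p = 0.00135).

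Counted together, 9 of the 10 genes were lower and 1 higher in kiTbr2GFP than in NesGFP, where 27.0% of all genes were lower and 18.2% higher. In tgTbr2GFP 8 were lower, 1 was higher and 1 did not pass, where 25.8% of all genes were lower and 15.8% higher. In PomcGFP 9 were lower, 0 were higher and 1 did not pass, where 24.0% of all genes were lower and 15.9% higher. The median differences over the 10 genes were -1.26, -1.06 and -1.36, against -0.01, -0.03 and 0.00 over all genes. At limma's unadjusted p under 0.05, 9 were lower and 1 higher in kiTbr2GFP, 8 lower and 1 higher in tgTbr2GFP, and 10 lower and 0 higher in PomcGFP, where 30.1%, 29.5% and 27.8% of all genes were lower and 22.0%, 19.6% and 20.2% higher. These 3 comparisons share the NesGFP arrays, so they are not independent of each other. Nes, counted as lower in all 3, is also the gene of the NesGFP reporter.

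**Figure D2:**
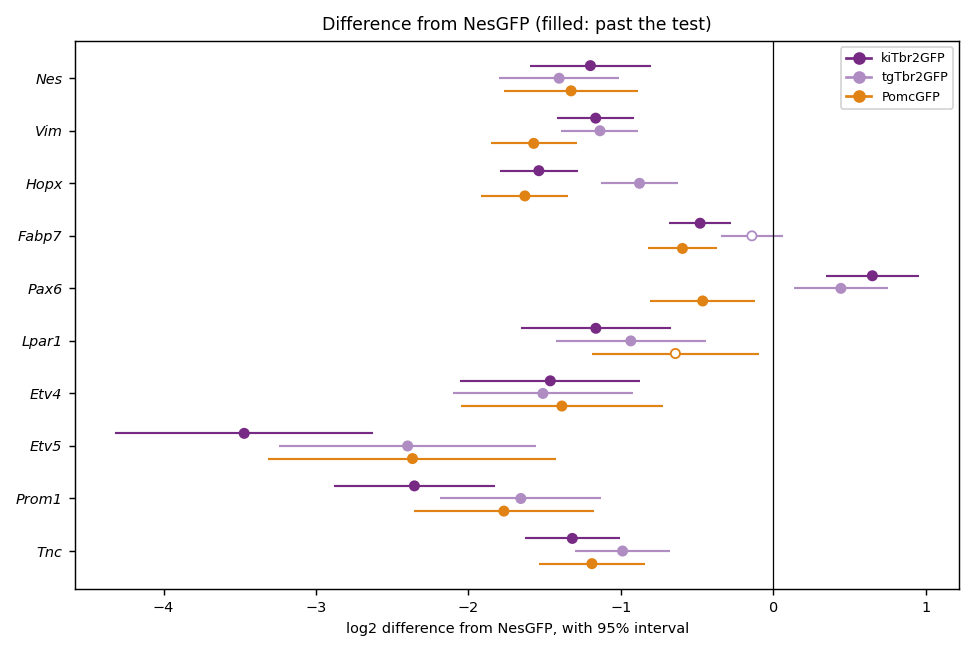
Log2 difference of kiTbr2GFP, tgTbr2GFP and PomcGFP from NesGFP (horizontal axis) for each of the 10 genes, with 95% intervals; filled points passed the limma test. Etv5 lies farthest to the left in each line, Pax6 lies to the right of 0 in both Tbr2 lines, and the open points are Fabp7 in tgTbr2GFP and Lpar1 in PomcGFP.

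Among the lines other than NesGFP the 10 genes moved less. Between tgTbr2GFP and kiTbr2GFP 1 gene was higher (Hopx) and 0 were lower, where 0.684% of all genes were higher and 0.436% lower, and the median was 0.28 against -0.02 over all genes. In PomcGFP against kiTbr2GFP 1 gene was lower (Pax6) and 0 were higher, where 1.98% of all genes were lower and 2.90% higher, with a median of -0.01 against 0.01. In PomcGFP against tgTbr2GFP 2 genes were lower (Hopx and Pax6) and 0 were higher, where 0.823% of all genes were lower and 0.545% higher, with a median of -0.16 against 0.03. At limma's unadjusted p under 0.05, 5 genes were higher and 0 lower in the first of these, 1 higher and 2 lower in the second, and 0 higher and 4 lower in the last. At that threshold 5.86% of all genes were higher and 3.35% lower in the first, 8.01% and 6.29% in the second, and 4.58% and 5.42% in the last. Of the counts at the adjusted p, the first was 0 without kiTbr2GFP array 1, 2 or 3 or tgTbr2GFP array 3, the second was 2 without tgTbr2GFP array 2, and the last was 0 without PomcGFP array 1 or 2 or tgTbr2GFP array 2 or 3.

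**Figure D3:**
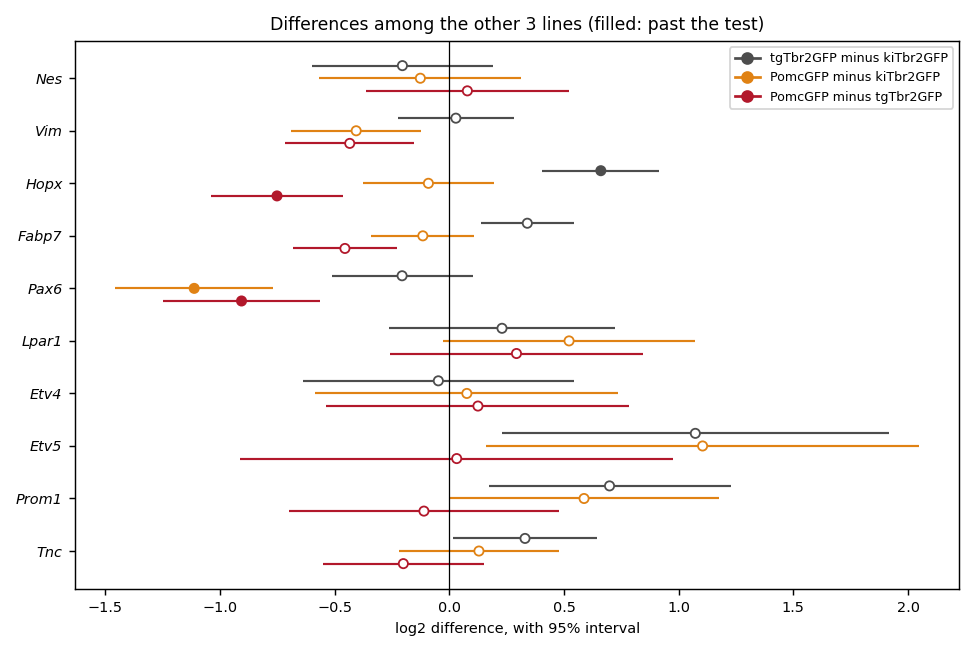
Log2 differences among kiTbr2GFP, tgTbr2GFP and PomcGFP (horizontal axis) for each of the 10 genes, with 95% intervals that are not adjusted for the number of genes; filled points passed the limma test. The filled points are Hopx (tgTbr2GFP minus kiTbr2GFP 0.66, PomcGFP minus tgTbr2GFP -0.75) and Pax6 (PomcGFP minus kiTbr2GFP -1.11, PomcGFP minus tgTbr2GFP -0.91), and the intervals of Etv5 are the widest.

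Other genes of radial glia and neural stem cells were read from a list of 31, of which 30 were measured. In kiTbr2GFP 16 were lower and 4 higher than in NesGFP, in tgTbr2GFP 14 lower and 3 higher, and in PomcGFP 21 lower and 2 higher, with medians of -0.50, -0.44 and -0.85. Id3, an inhibitor of proneural factors, was lower (-2.82, -2.77 and -2.27 in that order), as were Aldoc, a glycolytic enzyme of astrocytes and radial glia (-2.73, -2.08 and -2.31), and Gfap as given above. The nuclear factor I genes Nfib and Nfia, which act in gliogenesis and in neuronal maturation, were higher: Nfib by 2.36, 2.34 and 2.13 and Nfia by 1.77, 1.57 and 1.33. Msi2, an RNA-binding protein of progenitors, was higher in kiTbr2GFP (0.68) and tgTbr2GFP (0.87). Sox2, which keeps stem cells undifferentiated, passed against NesGFP in PomcGFP (-1.65, adjusted p = 7.87e-05), with -0.41 in kiTbr2GFP (adjusted p = 0.0878) and -0.47 in tgTbr2GFP (adjusted p = 0.0597), and it was lower in PomcGFP than in kiTbr2GFP (-1.24, adjusted p = 0.00417) and tgTbr2GFP (-1.18, adjusted p = 0.0167).

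**Figure D4:**
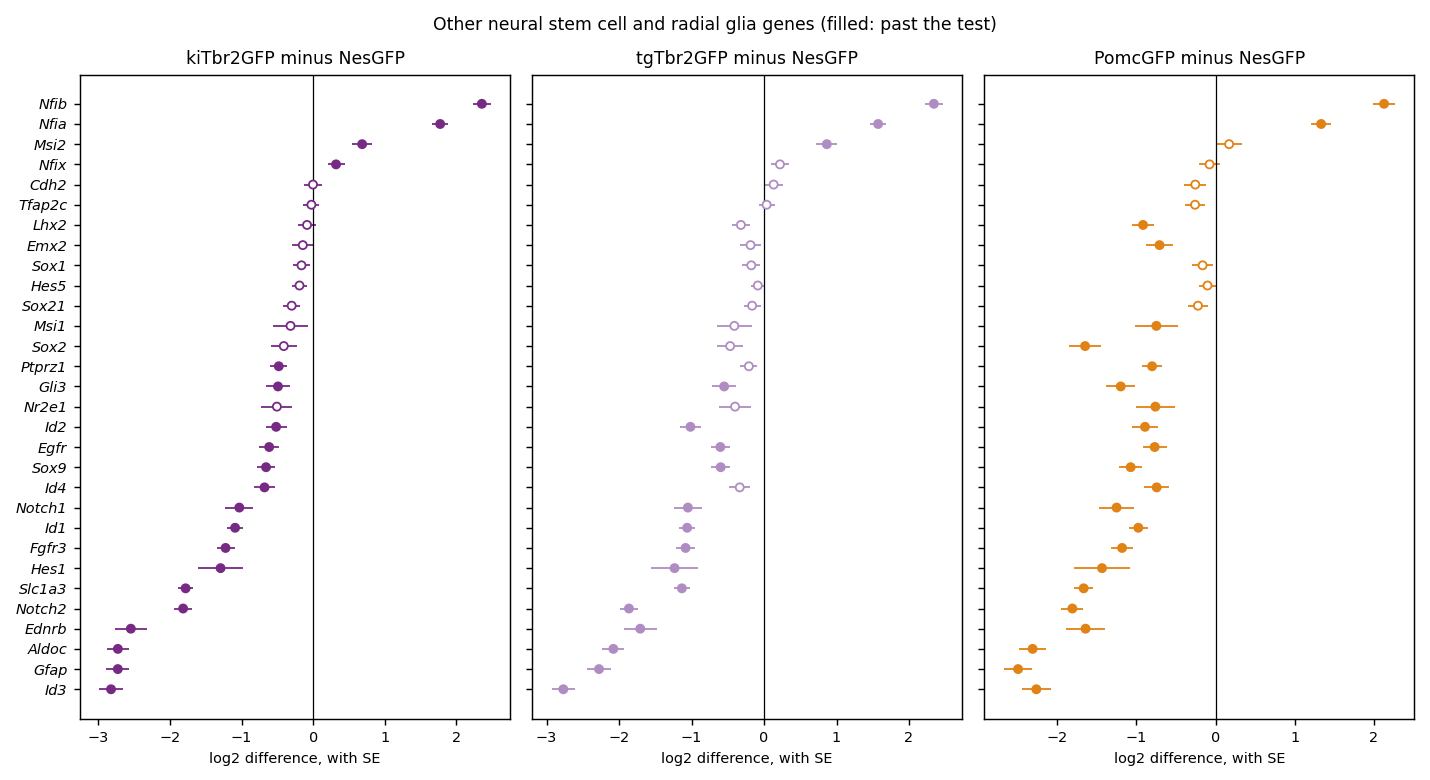
Log2 difference from NesGFP (horizontal axis, 1 panel per line) of the 30 measured genes of the list of other neural stem cell and radial glia genes, with standard errors; filled points passed the limma test. Nfib and Nfia lie to the right of 0 in all 3 panels, Id3, Gfap and Aldoc lie farthest to the left, and Sox2 is filled in the PomcGFP panel alone.

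Markers of other cell types moved with the same contrast. Aldoc and Sox9 are among the astrocyte markers and also on the list of other neural stem cell and radial glia genes. All 8 astrocyte, 9 endothelial, 7 mural and 6 oligodendrocyte precursor markers were lower than in NesGFP in each of the 3 other lines, and so were 6, 6 and 4 of 6 oligodendrocyte markers in kiTbr2GFP, tgTbr2GFP and PomcGFP. The mean of the endothelial markers lay between 9.62 and 9.78 on the NesGFP arrays and between 6.23 and 7.21 on the others, that of the mural markers between 10.03 and 10.14 against 7.00 to 7.72, and that of the astrocyte markers between 10.06 and 10.16 against 7.84 to 8.94. For oligodendrocyte precursors the NesGFP mean was 9.49 to 9.64, against 7.14 to 7.79. None of these markers lay below the 25th percentile on every array of a line, except 2 endothelial markers in kiTbr2GFP. Of 5 microglial markers, 0 were lower in any of the 3 lines, also at limma's unadjusted p under 0.05, and 2 were higher in PomcGFP. Of 5 markers of ependyma and choroid plexus 1 was lower in each line, and of 5 meningeal fibroblast markers 3, 3 and 2 were lower. The NesGFP arrays thus read high for vascular and oligodendroglial markers as well as for astrocyte and radial glia genes, and the part of these markers in the differences of the 10 genes was not tested.

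Granule neuron and intermediate progenitor markers differed by line. Of 4 granule neuron markers, 3 were higher and 1 (Calb1) lower than in NesGFP in each Tbr2 line, and 4 were higher in PomcGFP. The 4 intermediate progenitor markers were all higher in both Tbr2 lines. Both lines were sorted on an Eomes reporter, so the rise of Eomes, 1 of the 4, is not independent of the sort. In PomcGFP 1 (Eomes, -1.28) was lower and 0 were higher, also at limma's unadjusted p under 0.05. The mean of the 4 intermediate progenitor markers was 9.24 to 9.40 in kiTbr2GFP, 8.70 to 8.97 in tgTbr2GFP, 7.43 to 7.98 in NesGFP and 7.33 to 7.44 in PomcGFP. Across all genes tested the NesGFP arrays correlated with the other arrays at r between 0.766 and 0.839, whereas arrays of different lines among the remaining 3 had r of 0.933 to 0.973 and arrays of the same line at 0.939 to 0.985.

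**Figure D5:**
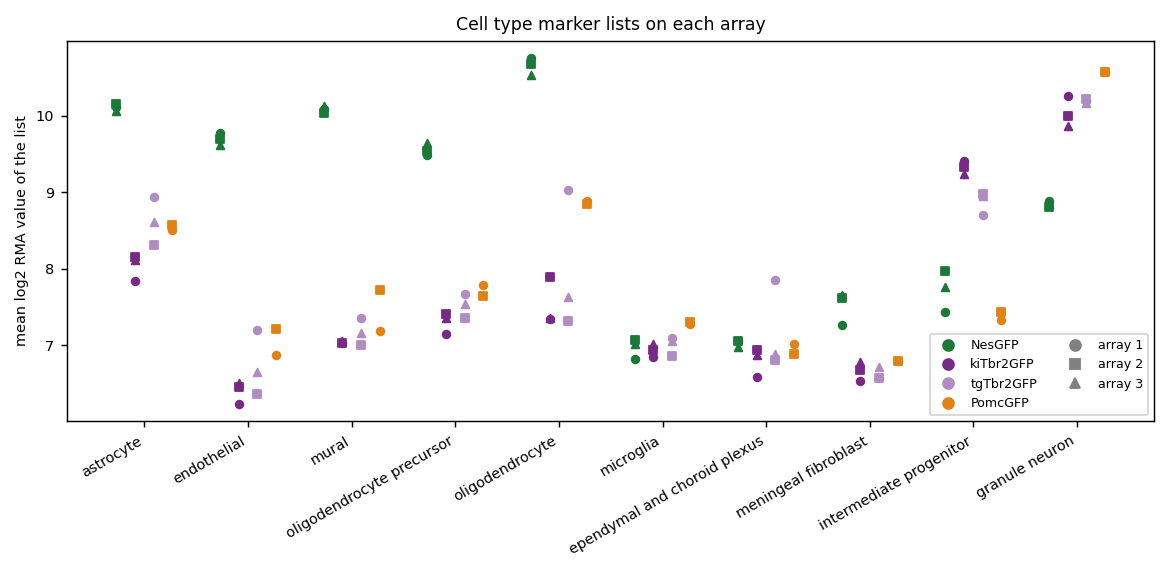
Mean log2 value of each cell type marker list (vertical axis) on each array; colours are reporter lines and symbols are array numbers within a line. The NesGFP arrays lie highest for the astrocyte, endothelial, mural, oligodendrocyte precursor and oligodendrocyte lists, and tgTbr2GFP array 1 lies highest of its line for the oligodendrocyte list (9.03).

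Genes with the most similar course over the 11 arrays were found by the root mean square difference after centring each gene on its own mean, for the 9 genes whose line means spanned more than 1 log2 unit, with 3 neighbours each. This is a description of 11 arrays dominated by the contrast of NesGFP with the rest. Nearest to Hopx were Slc1a3, a glutamate transporter of radial glia and astrocytes (0.146), Gas6 (0.156) and Ugp2 (0.176). Slc1a3 had the same order of the Tbr2 lines, with 0.65 more in tgTbr2GFP than in kiTbr2GFP. It was picked for its likeness to Hopx on these same arrays, so this is no separate support for the Hopx difference. Nearest to Pax6 were Cemip2 (0.160), Mtbp (0.175) and Neurog2 (0.175), a proneural factor of intermediate progenitors. Nearest to Prom1 were Adap1 (0.137), Gjb6, an astrocyte connexin (0.149), and Grm3, a glutamate receptor gene (0.191).

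Vim lay nearest to Tmed10 (0.0626), Ptpa (0.119) and Gldc (0.125), and Tnc to Asb8 (0.0963), Tmco1 (0.105) and Bphl (0.113). Nes lay nearest to Eif2b5 (0.121), Arhgap1 (0.130) and Txndc12 (0.135), and Lpar1 to Vxn (0.153), Mboat2 (0.178) and Add3 (0.179). Etv4 lay nearest to Manba (0.172), Msrb1 (0.196) and Oasl2 (0.207). Etv5 had the most distant neighbours, Rasgrp3 (0.403), Abhd3 (0.410) and Omg (0.415), a myelin glycoprotein gene. The distance is not scaled by the spread of a gene, and the line means of Etv5 spanned 3.47. Among the 10 genes themselves the closest pairs were Hopx and Vim (0.243), Tnc and Vim (0.255) and Hopx and Tnc (0.264), and the most distant was Etv5 and Pax6 (1.65).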

How the data were processed

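The deposited values are 1 log2 value per probe set and array, made by the authors with RMA in oligo (versions not given), per the submitters' processing notes; the genome build behind the probe annotation is not given in the sources used here. Of the probe sets, 21789 had 1 gene symbol, 1621 several and 5448 none listed. Probe sets with 1 symbol, above the 25th percentile of the array on at least 2 arrays, entered; the one with the highest mean stood for its gene. One mean per line was fitted to 11 arrays with limma 3.58.1 in R 4.3.3 (7 residual and 4.22 prior degrees of freedom), which pools the spread because PomcGFP had 2 arrays. Tests were two-sided, with Benjamini-Hochberg adjustment over 16527 genes. The number of arrays limits the precision. The fit was tested on simulated data.

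Named are the 10 genes, 3 neighbours of each whose line means span more than 1, up to 3 genes per direction of each list, and markers beside a result; Des, Synm, Plpp1, Lpar4, Spred2, Tnr, Fabp3 and Prom2 were named after their values were seen, as were further genes of the growth factor list. The genes and lists were chosen with earlier results of these data known. Aldoc, Sox9, Gfap, Fgfr3, Egfr and Ptprz1 are each on more than 1 list, so the counts of those lists are not independent. Gene positions and upstream windows are from RefSeq (GRCm38.p6). Alternatives were filters, probe set averaging, cyclic loess, median centring, a trended robust prior, array weights, the replicate block, fits of the compared lines alone and leaving out each array.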

Additional observations from a re-analysis of the deposited data

Results flagged for a closer look

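The 10 genes gave 4 differences between lines other than NesGFP that passed limma's test, and these are the places where lines compared with the same NesGFP arrays differed from each other. Hopx was 0.66 higher in tgTbr2GFP than in kiTbr2GFP, and lower in PomcGFP than in tgTbr2GFP (log2 difference -0.75). Pax6 was lower in PomcGFP than in kiTbr2GFP (-1.11) and than in tgTbr2GFP (-0.91). Both Hopx calls were lost without tgTbr2GFP array 2 or 3, and so was the Pax6 call against tgTbr2GFP. No line has 4 arrays, so single arrays were not tested for standing apart from their line.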

How the results depend on the processing

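Of 1200 gene and comparison values recomputed under other settings, 1142 kept direction and side of the threshold, 15 changed sign without a call under either setting, 27 lost and 16 gained the call, and 0 called values reversed. With array weights 2 of the 10 genes passed for tgTbr2GFP minus kiTbr2GFP, 2 for PomcGFP minus kiTbr2GFP and 4 for PomcGFP minus tgTbr2GFP. Over all genes 1393, 2065 and 1063 passed, against 185, 807 and 226 in the main analysis. In the weighted fit kiTbr2GFP array 2 and tgTbr2GFP array 2 carried most of the weight of their lines. Fits of the compared lines alone gave 3 genes for PomcGFP minus kiTbr2GFP (1246 over all genes) and 0 for PomcGFP minus tgTbr2GFP (143 over all genes); for the latter the adjusted p of Hopx was 0.0629 and of Pax6 0.0513. The trended robust prior gave 2 genes for tgTbr2GFP minus kiTbr2GFP. Leaving out each array gave 0 to 1, 1 to 2 and 0 to 3 of the 10 genes for these comparisons, and 68 to 260, 364 to 1044 and 38 to 335 of all genes. For tgTbr2GFP minus kiTbr2GFP, the count over all genes was 68, 85 and 69 without kiTbr2GFP array 1, 2 or 3 and 77 and 80 without tgTbr2GFP array 1 or 3; for PomcGFP minus kiTbr2GFP, 493 and 533 without kiTbr2GFP array 1 or 3 and 364 and 383 without PomcGFP array 1 or 2; for PomcGFP minus tgTbr2GFP, 38 and 52 without PomcGFP array 1 or 2 and 78 and 93 without tgTbr2GFP array 2 or 3. Beyond fewer arrays, the cause was not tested. Arrays with the same number in their titles had deviations from the line means that correlated at -0.11 to 0.26. Of these 15 pairs, 4 were over 0.1. Arrays of different lines with unlike numbers had -0.25 to 0.12. Between arrays numbered 3 the values were 0.15 (kiTbr2GFP and NesGFP), 0.26 (kiTbr2GFP and tgTbr2GFP) and 0.13 (NesGFP and tgTbr2GFP). The numbers were not taken as pairs in the main fit, and whether arrays of a number share an effect was not tested. With the replicate block 10 genes passed for kiTbr2GFP minus NesGFP, 9 for tgTbr2GFP and 9 for PomcGFP. For the comparisons above 1, 1 and 2 passed (147, 673 and 152 over all genes). Each count of the 10 genes against NesGFP lay between 8 and 10 in all settings. Nes outside NesGFP lay near the 25th percentile, where the array resolves little, and 2 PomcGFP arrays limit its comparisons.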
